A study of Homo sapiens with 8 samples.

Results

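A set of 6 microRNA genes that mark tissues foreign to K562 were followed through an erythroid induction of this human myeloid leukaemia cell line: MIR367, MIR371A, MIR372 and MIR373, which mark embryonic cells, MIR429, which marks epithelia, and MIR375, which marks pancreatic islets. They were chosen by gene symbol and make up 6 of the 207 features of the array, of which 67 carried a symbol and 140 are unnamed here. Each feature is a set of 3 consecutive spots, so the members hold 18 of 621 rows. The symbols do not tell which mature arm a probe reads, and the probes' own sequences were not used here. The group at day 0 was K562 without stimulation. The groups at days 2, 4, 6, 8, 10 and 22 were K562 adapted to the serum-free medium StemLineII and given erythropoietin at 7.5 U/ml and interleukin 3 at 50 ng/ml. All groups were the same unmodified line, which the labels trace to ATCC. Maintenance was in IMDM with fetal calf serum, and the labels do not say whether the unstimulated cells had already been moved to StemLineII. The extraction label names CD34 cells, against K562 in every other label.

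Each day had 1 array, so no time point had a replicate, the precision was limited by the number of arrays, and p-values measure only the scatter between these arrays, which may be technical. A day 15 column was left out because it was the average of days 10 and 22 to within 0.005 intensity units. The day 22 array stood apart in range: its brightest spot lay 554 units above its dimmest, against 2098 to 15443 units on the other 6 arrays. Of the lists linked here to blood lineages, 4 of 10 erythroid and 2 of 9 myeloid or lymphoid microRNAs were measured by name. Those lists were written with earlier results of these data known, and a place on them does not make a microRNA specific to blood. MIR15B (erythroid list) and MIR21 (myeloid or lymphoid list) gave a signal above that of every member on all 7 arrays. The others measured did so on fewer, namely MIR15A on 6 and MIR22, MIR96 and MIR342 on 3 each. MIR451A and MIR144, the best known red cell microRNAs, were not among the named features. Neural (17 genes), muscle (9) and liver (1) lists had 0 named features.

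MicroRNAs repress messenger RNAs that pair with the seed, bases 2 to 8 of the mature strand. MIR367 lies beside the MIR302 genes, and MIR371A, MIR372 and MIR373 form another cluster. Both clusters are active in human pluripotent stem cells and are switched off as cells differentiate, and the MIR371A cluster is also active in germ cell tumours. MIR429 belongs to the MIR200 family, which keeps epithelial cells in their state by repressing the transcription factors ZEB1 and ZEB2. MIR375 is abundant in pancreatic islets, where it restrains insulin secretion. They are taken here as markers of tissues other than blood.

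All 6 members had mature sequences in the RefSeq table for GRCh38.p14, as did 65 of the 67 named features. The sequences below are shown with the seed in capitals, because the seed divides the members into groups and ties some of them to microRNAs that gave strong signals on the same arrays. The first set shares the seed AUUGCAC and holds MIR367 (chromosome 4, minus strand) with MIR25 (chromosome 7, minus strand) and MIR32 (chromosome 9, minus strand).
hsa-miR-367-3p: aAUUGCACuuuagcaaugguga
hsa-miR-25-3p: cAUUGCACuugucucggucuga
hsa-miR-32-5p: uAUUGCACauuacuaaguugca
Of 6 human mature names with this seed in the table, these 3 belong to named features. Counted position by position from the 5′ end, hsa-miR-367-3p was identical to hsa-miR-25-3p at 12 of 22 bases and to hsa-miR-32-5p at 13 of 22.

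The second set holds the chromosome 19 cluster, all on the plus strand, with MIR20A (chromosome 13, plus strand) and MIR93 (chromosome 7, minus strand). The seeds of MIR20A and MIR93 hold 6 bases of the MIR372 and MIR373 seed, AAGUGC, shifted by 1 position. The seed of hsa-miR-371a-3p does not hold these 6 bases.
hsa-miR-371a-3p: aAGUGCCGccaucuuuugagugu
hsa-miR-372-3p: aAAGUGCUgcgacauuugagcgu
hsa-miR-373-3p: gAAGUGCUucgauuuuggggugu
hsa-miR-20a-5p: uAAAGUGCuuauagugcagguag
hsa-miR-93-5p: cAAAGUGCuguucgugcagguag
The seed AAGUGCU of hsa-miR-372-3p and hsa-miR-373-3p occurs in 12 human mature names of the table, the MIR302 family among them, and these were the only 2 that belong to named features. They were identical at 16 of 23 bases. The hexamer AAGUGC lay at bases 2 to 7 of both and at bases 3 to 8 of hsa-miR-20a-5p and hsa-miR-93-5p, and in the seed of no other named feature's mature strand. Position by position, hsa-miR-372-3p was identical to hsa-miR-20a-5p at 4 of 23 bases and to hsa-miR-93-5p at 5 of 23. These counts do not allow for the shift of 1 position, so they do not measure how alike the strands are. Identity in the shifted frame was not counted. The other arm of MIR371A, hsa-miR-371a-5p (aCUCAAACugugggggcacu), has a seed found in 1 human name.

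The last set holds MIR429 (chromosome 1, plus strand) and MIR375 (chromosome 2, minus strand), whose seeds had no match among the other named features.
hsa-miR-429: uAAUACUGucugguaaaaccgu
hsa-miR-375-3p: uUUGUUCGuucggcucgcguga
The seed AAUACUG occurs in 3 human names, all of the MIR200 family, and the seed UUGUUCG in 1.

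Most member spots were dimmer than the average of their array. The deposited values are Cy3 intensities with the mean of each array subtracted, so a value above 0 is brighter than that array's average spot. Of 126 member spots on 7 arrays, 4 (3.17%) lay above 0, against 962 of all 4347 spots (22.1%). These 4 were the third spot of MIR429 on day 2, at 6.55 units, the first and the third spot of MIR429 on day 22, at 10.65 and 14.65 units, and the third spot of MIR373 on day 22, at 38.65 units. Thus 3 of the 4 came from the day 22 array, which had the narrowest range and where 204 of all 621 spots (32.9%) lay above 0. On day 2 191 of 621 (30.8%) did. No detection limit was set, so whether the members were expressed in these cells at all was not tested. For a microRNA that is present, bulk RNA of this kind cannot tell few cells with it from little of it in each cell.

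Measured above the dimmest spot of its array, the lowest and highest member stood at 60.7 and 147 units on day 0, where the median spot stood at 112 and the brightest at 15443. On day 2 they stood at 115 and 314 units (median spot 261), on day 4 at 163 and 257 (median 312) and on day 6 at 53.0 and 153 (median 131). On day 8 they stood at 17.0 and 46.3 units (median spot 46.0), on day 10 at 24.7 and 56.7 (median 60.0) and on day 22 at 42.3 and 87.0 (median 63.0). The lowest member was thus below the median spot on each array, and the highest was above it except on days 4 and 10. The units of different arrays are not scaled to each other. The highest member reached 0.954% of the brightest spot on day 0 and between 1.38% and 6.95% on days 2 to 10. On day 22, where the brightest spot stood at 554 units, it reached 15.7%.

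For comparison between days the values were background-corrected, put on a log2 scale and quantile-normalized, which gives every array the same distribution of spot signals (log2 levels below are on this scale). The median mean level of all 207 features was 7.04. Of the 6 members 5 were under it, and 4 of these (MIR367, MIR371A, MIR372 and MIR375) were far under it, at percentiles 14.5, 16.9, 15.0 and 12.1. MIR373 was at percentile 54.1 and MIR429 at 45.4. Probes differ in affinity, so these positions describe signals and do not rank the abundance of the microRNAs.

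**Figure D1:**
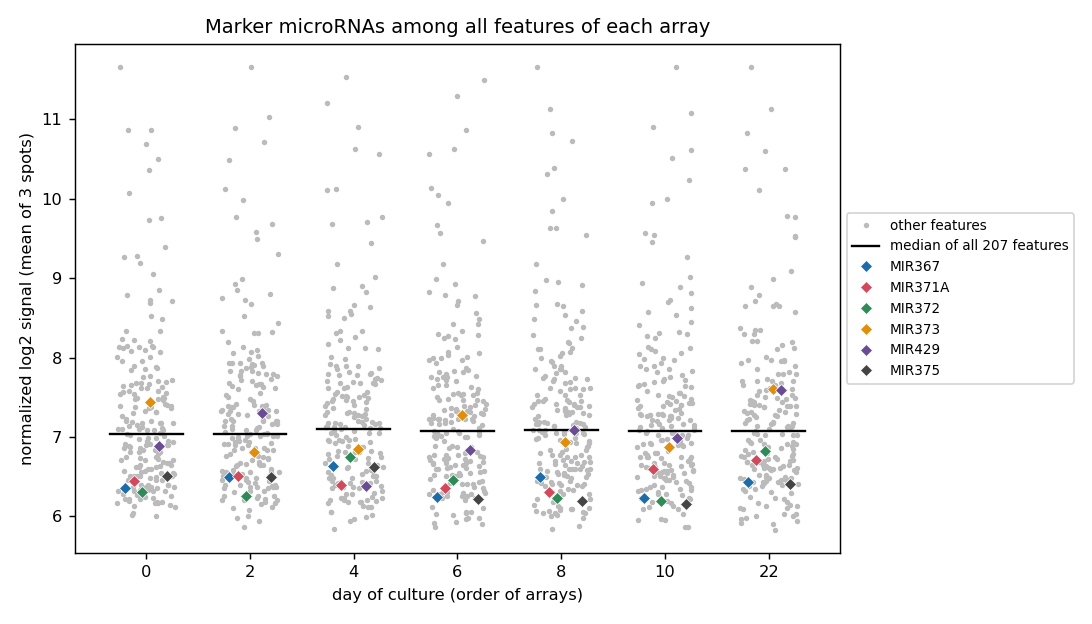
Normalized log2 signal (mean of 3 spots) of all 207 features on each of 7 arrays, with the 6 members as coloured diamonds and the array's median as a bar. MIR367, MIR371A, MIR372 and MIR375 lie below the bar on all arrays, while MIR373 lies above it on days 0, 6 and 22 and MIR429 on days 2 and 22.

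The median percentile of the 6 members was between 17.9 and 30.7 on days 0 to 10 and 37.7 on day 22. The number of features brighter than the brightest member was 70, 80, 123, 85, 103, 110 and 55 on days 0, 2, 4, 6, 8, 10 and 22. MIR373 was the brightest member on days 0, 4, 6 and 22, and MIR429 on days 2, 8 and 10. Across all 7 arrays 13 of 61 named features outside the set stayed above the brightest member: MIRLET7B, MIRLET7E, MIRLET7G, MIRLET7I, MIR15B, MIR20A, MIR21, MIR25, MIR328, MIR33A, MIR345, MIR449A and MIR450A1. At the other end 17 of the 61 were above it on no array.

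MIR367 is transcribed together with the MIR302 genes in pluripotent cells. Its log2 levels were 6.36, 6.50, 6.63, 6.25, 6.50, 6.23 and 6.44 on days 0, 2, 4, 6, 8, 10 and 22. Its 3 spots on day 0 read 6.88, 6.14 and 6.05, a wider spread (SD 0.46) than the whole range over the 7 arrays (0.40). Ordered by level, no 2 neighbouring days differed by more than the larger of their spot SDs (0 of 6 gaps). This yardstick, used for each member, covers the spread within an array and not that between arrays or cultures. The extremes, day 10 at 6.23 ± 0.17 and day 4 at 6.63 ± 0.17 (SD, n = 3 spots), had spots that did not overlap. Extreme days are picked by their levels, here and for the members below, which favours spots that do not overlap. No share over all features was taken for this check, so it does not show a change.

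MIR371A, the first gene of the chromosome 19 cluster, was as flat. Its levels were 6.44, 6.51, 6.40, 6.35, 6.31, 6.59 and 6.71 on days 0, 2, 4, 6, 8, 10 and 22. The lowest, 6.31 ± 0.14 on day 8, and the highest, 6.71 ± 0.32 on day 22 (SD, n = 3 spots), had overlapping spots, and 0 of its 6 gaps between neighbours exceeded the spot SD.

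MIR372, whose product with the embryonic seed targets LATS2 and the cell cycle inhibitor CDKN1A, had levels of 6.30, 6.26, 6.75, 6.45, 6.23, 6.20 and 6.82 on days 0, 2, 4, 6, 8, 10 and 22. Days 4 and 22 were high and the other 5 arrays lay between 6.20 and 6.45. Its gaps between day 0 and day 6 (0.15) and between day 6 and day 4 (0.30) exceeded the larger spot SD (0.10 in each), and the other 4 did not. The 2 high days differed by 0.07, less than the spot SD of 0.30 on day 22. In intensity above the dimmest spot the day 4 value was 237 ± 15.5 units and the day 22 value 55.3 ± 9.29 (SD, n = 3 spots), against median spots of 312 and 63.0.

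MIR373, which carries the same seed as MIR372 and is known for promoting invasion in tumour cells, gave levels of 7.44, 6.82, 6.85, 7.28, 6.94, 6.88 and 7.60 on days 0, 2, 4, 6, 8, 10 and 22. Days 0, 6 and 22 gave the highest values. The widest of its gaps between neighbours, 0.34 from day 8 to day 6, exceeded the larger spot SD of 0.20, and the other 5 did not exceed theirs. On day 22 the 3 spots read 7.35, 7.21 and 8.25, with an SD of 0.57. MIR373 was brighter than MIR372 on all 7 arrays, by 0.10 on day 4 and up to 1.13 on day 0.

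MIR429 had the widest range of the 6 members. Its levels were 6.88, 7.30, 6.39, 6.83, 7.08, 6.99 and 7.59 on days 0, 2, 4, 6, 8, 10 and 22, a range of 1.20. Its lowest day, 6.39 ± 0.38 on day 4, and its highest, 7.59 ± 0.25 on day 22 (SD, n = 3 spots), had no overlapping spots. Of its 6 gaps 3 exceeded the larger spot SD: day 4 to day 6 (0.45), day 8 to day 2 (0.22) and day 2 to day 22 (0.29). The step from day 2 to day 4 ran from percentile 61.4 to percentile 16.9 of the array. In intensity above the dimmest spot it ran from 314 ± 50.9 to 163 ± 79.2 units (SD, n = 3 spots), while the median spot stood at 261 and 312 units, and the day 4 spots read -448, -336 and -295 in the deposited values.

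MIR375 had levels of 6.51, 6.49, 6.62, 6.22, 6.19, 6.15 and 6.40 on days 0, 2, 4, 6, 8, 10 and 22. Days 0, 2 and 4 were the highest and days 6, 8 and 10 the lowest, yet 0 of its 6 gaps exceeded the larger spot SD. On day 2 the third spot read 6.99 against 6.37 and 6.12 for the others. The lowest day, 6.15 ± 0.28 on day 10, and the highest, 6.62 ± 0.11 on day 4 (SD, n = 3 spots), had no overlapping spots.

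**Figure D2:**
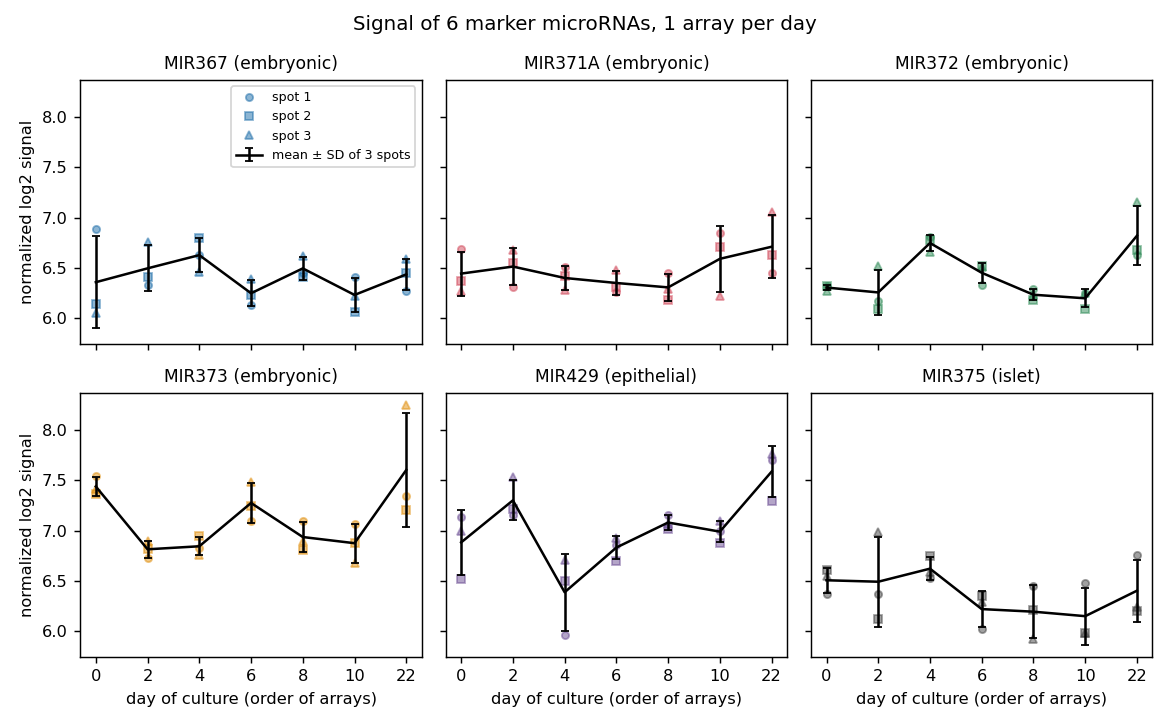
Normalized log2 signal of each member by day, in 6 panels with a shared axis: symbols are the 3 spots and the line joins their means, with bars of 1 SD over spots. MIR429 has the widest range (1.20) and MIR367 the narrowest (0.40), and the day 22 point is the highest of MIR371A, MIR372, MIR373 and MIR429. This order of days holds after quantile normalization. Without normalization the highest day is day 4 for MIR371A, MIR372 and MIR373 and day 2 for MIR429.

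Over all members 6 of 36 neighbouring gaps (16.7%) exceeded the spot SD, against 398 of 1242 (32.0%) over all features. The median range over 7 arrays was 0.55 for the members and 0.92 for all 207 features, and the median spot SD (root mean square over arrays) was 0.23 and 0.20. A range under 1 was found for 5 of 6 members and for 54.1% of all features. Most members were dim, and the background correction shrinks the differences of dim features. No set of equally dim features was compared, so these figures do not show that the members were steadier than others of their level. The spots of a feature also differed in order with the array. In 1, 6, 2, 6, 1, 1 and 5 of the 6 members the last of the 3 spots outshone the first on days 0, 2, 4, 6, 8, 10 and 22. Among all features this held for 36.7%, 91.8%, 51.2%, 73.9%, 33.3%, 17.9% and 44.0%. The part of this spot order in the members' levels was not tested.

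A trend over the order of the time points was fitted for all features at once. The left-out day 15 kept its place in that order, so day 22 lies 2 steps after day 10, and the change is the slope over the 7 steps from day 0 to day 22. None of the 6 members passed (0 fell, 0 rose, and 0 had an unadjusted p under 0.05). Among all 207 features 0.483% fell (1 feature, MIR19A) and 0% rose, by limma with Benjamini-Hochberg adjustment at 0.05, and 22 had an unadjusted p under 0.05. With a background this low, 0 of 6 does not set the members apart. MIR429 had a fitted change of 0.55 ± 0.40 (SE, n = 7 arrays), with a 95% interval from -0.37 to 1.47 and a limma adjusted p of 0.661. The fitted change was 0.26 ± 0.34 for MIR372, 0.24 ± 0.39 for MIR373 and 0.22 ± 0.27 for MIR371A. It was -0.08 ± 0.28 for MIR367 and -0.28 ± 0.29 for MIR375 (SE, n = 7 arrays). The limma adjusted p of the 6 members lay between 0.661 and 0.909. The 95% intervals reached from -0.93 (MIR375) at the lowest to 1.47 (MIR429) at the highest, so changes of up to about that size over the course lie within them.

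The sign of these fitted changes depended on how the arrays were scaled. After quantile normalization 4 members had positive and 2 negative fitted changes, with a median of 0.23 against 0.03 for all features. Without normalization all 6 were negative, with a median of -0.97, and so were 205 of the 207 features, whose median was -1.24. With median centring, and likewise with 75th percentile scaling, all 6 were positive, with medians of 0.52 and 0.73, against 0.24 and 0.46 for all features. The members' median exceeded that of all features by 0.20 after quantile normalization and by 0.28 under the other 3, which differ from each other only by a constant per array. In the 4 fits 0 members passed the limma test after Benjamini-Hochberg adjustment. The order of days also depended on the scaling. Without normalization the highest day was day 4 for MIR367, MIR371A, MIR372, MIR373 and MIR375, and day 2 for MIR429. MIR373 then stood at 7.77 on day 4 and 6.61 on day 22, where the medians of all features were 8.14 and 6.27.

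**Figure D3:**
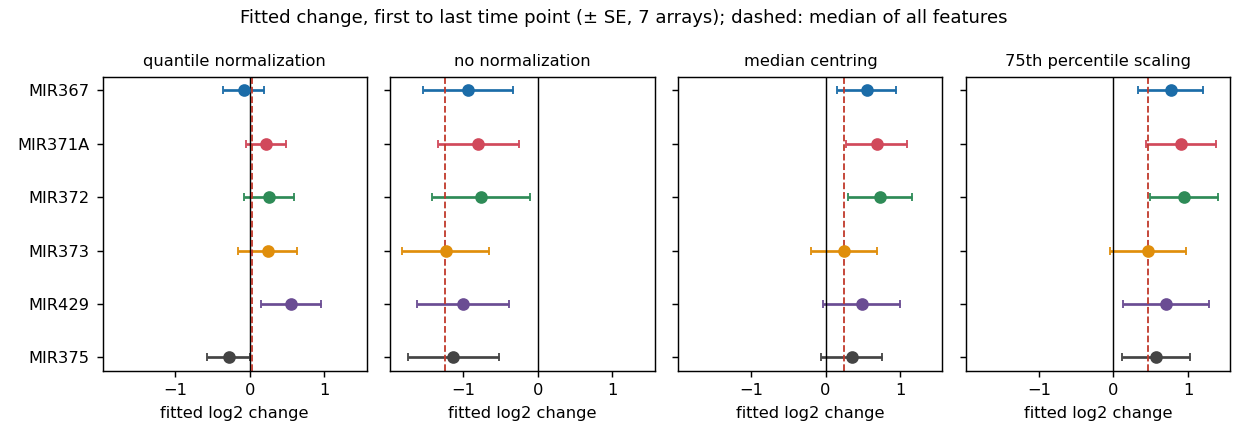
Fitted log2 change over the course for each member, with bars of 1 SE (7 arrays), under 4 scalings; the dashed line is the median of all 207 features. The points move together with the dashed line, from -1.24 without normalization to 0.46 with 75th percentile scaling.

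Without the day 22 array the fitted change became -0.20 ± 0.49 for MIR372 and -0.43 ± 0.51 for MIR373 (SE, n = 6 arrays). It was 0.01 ± 0.44 for MIR371A and 0.08 ± 0.57 for MIR429, and it stood at -0.22 for MIR367 and -0.68 for MIR375. Those slopes are extended past day 10, their last array. The arrays were also divided into days 0 to 6 and days 8 to 22, a split taken from an earlier analysis of spot order among bright features. Over all features the shares given above do not separate these parts, since day 0 (36.7%) lies below day 22 (44.0%). With a term for the split the fitted changes were 1.05 ± 0.59 for MIR372, 0.65 ± 0.77 for MIR373, 0.28 ± 0.55 for MIR371A and 0.25 ± 0.80 for MIR429 (SE, n = 7 arrays). They were -0.08 for MIR367 and -0.002 for MIR375. Within days 0 to 6 (4 arrays) they were -0.20, -0.37, 0.85, -0.37, -0.94 and -0.66 for MIR367, MIR371A, MIR372, MIR373, MIR429 and MIR375, each with an SE of 1.29 over 7 steps. Within days 8 to 22 (3 arrays) they were -0.02, 0.51, 0.86, 1.44, 1.10 and 0.31, with SEs from 0.29 (MIR375) to 0.46 (MIR373). Both sets are slopes extended to 7 steps, more than either part spans. MIR373, with a fitted 1.44, stood at 6.94 on day 8 and 7.60 on day 22. In these 3 fits 0 members passed by limma with Benjamini-Hochberg adjustment, and 0% of all features did, while 16, 11 and 61 features had an unadjusted p under 0.05.

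A peak or trough within the course was tested with a second-order term in the same kind of fit. None of the 6 members passed, with limma adjusted p between 0.348 (MIR373) and 0.985 (MIR367), and 0 had an unadjusted p under 0.05. Among all features 2.9% passed, which is 6 of 207, and 37 had an unadjusted p under 0.05. All 6 members had a positive second-order coefficient, the direction of a trough, as did 54.1% of all features. Without normalization 2 members and 25.6% of all features did. The largest were 0.55 ± 0.28 for MIR373 and 0.48 ± 0.31 for MIR429 (SE, n = 7 arrays).

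Set against day 0 array by array, 0 of 36 pairs of a member and a later day reached a difference of 1 on the log2 scale. Each compares 2 single arrays, with no replicate behind either. Over all features that size was reached by 7.57% of pairs, namely by 9.18%, 6.28%, 2.42%, 4.35%, 2.9% and 20.3% of features on days 2, 4, 6, 8, 10 and 22. These shares include bright features, whose differences are less shrunk by the background correction than those of dim members. The largest differences of members were 0.70 for MIR429 on day 22, 0.52 for MIR372 on day 22 and -0.62 for MIR373 on day 2. MIR373 lay below day 0 on 5 of the 6 later days, by 0.16 to 0.62, and above it by 0.16 on day 22. MIR375 lay below day 0 on 5 of 6 days, by at most 0.36. No member lay on 1 side of day 0 throughout. Of all 207 features 24 did so above and 23 below, so 0 of 6 does not set the members apart. Without normalization 3 of 36 pairs reached the size, MIR372 on day 4 (1.25), MIR429 on day 2 (1.20) and MIR367 on day 4 (1.05), against 21.9% of the pairs of all features. In that setting the median difference of all features from day 0 was itself 0.86 on day 4 and 0.54 on day 2.

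Genes with the same seed did not give the same signal. MIR25, an oncogenic microRNA hosted by the replication gene MCM7, carries the seed of MIR367 and was brighter than it on all 7 arrays, by 1.26 on day 22 to 2.75 on day 6. Its levels were 8.68, 7.90, 8.87, 8.99, 8.66, 8.63 and 7.70 on days 0, 2, 4, 6, 8, 10 and 22, and its mean stood at percentile 90.8 of all features. MIR32, hosted by an intron of TMEM245, carries the same seed and differed from MIR367 by between -0.20 and 0.88, being higher on 4 of 7 arrays. Its mean was at percentile 23.7. On day 10, where it stood highest (7.11 ± 0.52, SD, n = 3 spots), its spot SD was also the widest.

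MIR20A of the MIR17_92 cluster, a MYC target that drives proliferation, and MIR93, its relative beside MIR25, hold the hexamer of the MIR372 and MIR373 seed. MIR20A had the highest mean level of all features and lay 4.89 above MIR372 in the median over arrays, with the smallest difference, 1.83, on day 22. MIR93 lay 2.08 above MIR372 and 1.39 above MIR373 in the median. On day 22 MIR93 (7.60 ± 0.14) and MIR373 (7.60 ± 0.57, SD, n = 3 spots) were level. In intensity above the dimmest spot MIR20A measured 12423 ± 3699 units on day 0 and 136 ± 5.86 on day 22, and MIR372 measured 60.7 ± 2.31 and 55.3 ± 9.29 (SD, n = 3 spots). On day 22 the highest member, MIR373, stood at 87.0 units.

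**Figure D4:**
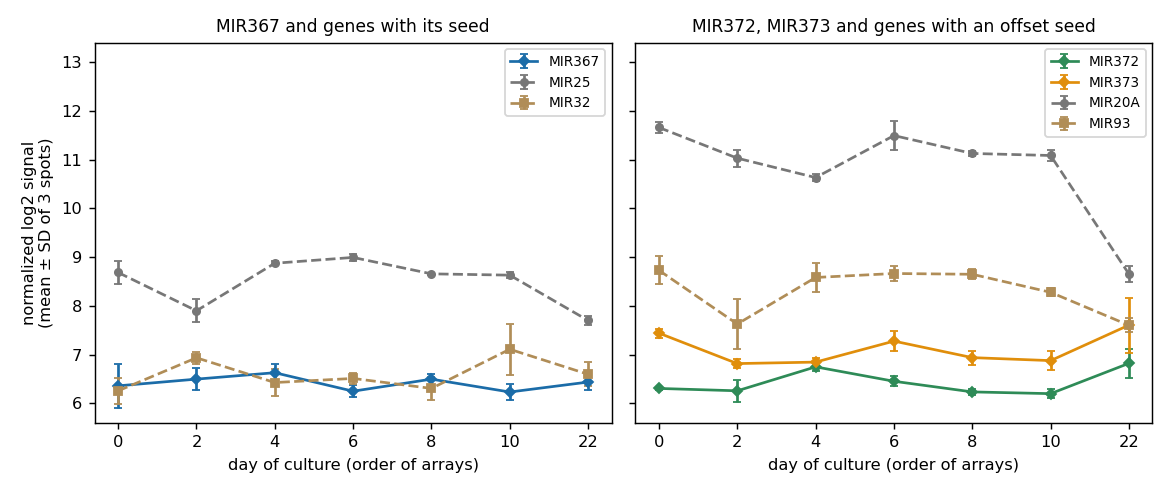
Normalized log2 signal by day (mean ± SD of 3 spots) of members (diamonds, solid lines) and of named genes with the same or an offset seed (dashed lines). MIR25 lies 1.26 to 2.75 above MIR367, MIR32 lies close to it, and MIR20A and MIR93 lie closest to MIR372 and MIR373 on day 22.

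Likeness of pattern was measured as the root mean square difference between log2 levels over 7 arrays, each feature centred on its own mean, where the median over 2211 pairs of named features was 0.52. Among the members the nearest pair was MIR367 and MIR375, at 0.12, and the farthest MIR372 and MIR429, at 0.43. MIR372 and MIR373, of 1 seed and 1 cluster, were at 0.29, and MIR371A and MIR372 at 0.23. Outside the set, MIR371A was nearest to MIR330 (0.11) and MIR10B (0.12), MIR372 to MIR338 (0.13) and MIR335 (0.17), and MIR375 to MIR335 (0.14) and MIR330 (0.15). MIR367 was nearest to MIR335 (0.15) and MIR10B (0.16), MIR429 to MIR323A (0.16) and MIR378A (0.20), and MIR373 to MIR370 (0.19) and MIR376C (0.22). The genes nearest to the 4 dim members (MIR330, MIR10B, MIR335 and MIR338) were dim as well, with mean levels of 6.13 to 6.53. The measure is not scaled by how much a feature varies, so any features that vary little over the arrays come out as alike. Small values among dim features therefore do not show a shared pattern.

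The wider marker lists were thinly covered. Of the embryonic list 4 of 25 genes were measured by name, of the epithelial list 1 of 7 and of the islet list 1 of 4, and these are the 6 members themselves, with 0 risen and 0 fallen. The embryonic median fitted change was 0.23 and the median mean level 6.45. The MIR17_92 list, which drives proliferation, had 5 of 15 genes measured, a median fitted change of -2.01 and a median level of 8.90, with 1 fallen (MIR19A) and 0 risen. MIR18A, whose fitted change was that median, stood at 9.75, 9.54 and 7.27 on days 0, 10 and 22. MIR19A stood at 9.73, 8.06 and 7.14 on these days, so it was already lower on day 10. The erythroid list had a median fitted change of -0.30 and a median level of 7.49, and the myeloid and lymphoid list -1.18 and 8.89, each with 0 risen and 0 fallen. For all features these medians were 0.03 and 7.04. Of the myeloid and lymphoid list, MIR21 stood at 10.69, 11.66 and 8.38 on days 0, 10 and 22, and MIR342 at 7.54, 6.98 and 6.60. The list changes were not refitted without the day 22 array, which had the narrowest range. How far they rest on that array was not tested.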

How the data were processed

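The authors deposited 1 table of linear Cy3 intensity values per array with each array's mean subtracted, as the values show: every column averages 0. The true zero and any scaling remain unknown, with the scanner and image software not given in the sources used here. Columns were matched through sample titles and rows to genes through the platform annotation.

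Values were background-corrected with normexp (offset 50) in limma 3.58.1 (R 4.3.3), put on the log2 scale, quantile-normalized over 7 arrays and averaged over 3 spots. The background correction and its offset shrink differences of dim features such as these. Trend and second-order terms were tested with lmFit and eBayes on the whole table, with Benjamini-Hochberg adjustment over 207 features at 0.05, and checked on simulated data. The outcome of that check is not reported here, and no result above rests on it. Alternatives covered scaling, background, offset, spots, day 15, a filter, time scale, the split of days 8 to 22 and each array left out. Named genes are the members, measured members of the marker lists, genes sharing a member's seed, the 2 most alike per member and the 2 brightest. The genes with an offset hexamer, and the 13 brighter throughout, were added after their values were seen. Members and lists were chosen with earlier results of these data known. Python 3.11.15 and matplotlib 3.10.9 drew the figures.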

Additional observations from a re-analysis of the deposited data

How the results depend on the processing

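For the 6 members, 0 passed the trend test and 0 the second-order test under every alternative run (the filter at the median level left only MIR373 in the test), and 5 of 6 lay under the median of all features under the alternatives run for position, except 4 with values at or below 0 set to 1 floor. The fitted change turned in sign without normalization for MIR371A (-0.80), MIR372 (-0.75), MIR373 (-1.23) and MIR429 (-0.999), with median centring for MIR367 (0.55) and MIR375 (0.35), with 75th percentile scaling for MIR367 (0.77) and MIR375 (0.57), and with the median of 3 spots for MIR367 (0.089). Within days 0 to 6 it turned for MIR371A (-0.37), MIR373 (-0.37) and MIR429 (-0.94), and within days 8 to 22 for MIR375 (0.31). With 1 array left out it ran from -0.20 to 0.43 for MIR372 and from -0.43 to 0.73 for MIR373, the negative end of both being without day 22. With that floor, MIR367, MIR371A, MIR372 and MIR375 had a fitted change of 0, since all their spots were at it. Differences of at least 1 from day 0 numbered 3 without normalization, 1 with 75th percentile scaling (MIR429 on day 4, -1.16) and 1 with the floor (MIR373 on day 22, 1.73), against 0 of 36 in the quantile-normalized values. The shares over all features were 21.9%, 11.7% and 21.3%, against 7.57%. Among all 207 features the trend count was 1, and became 9 without normalization, 2 with median centring or 75th percentile scaling, 3 with day 15, 10 on a scale of days, and 0 with the floor, on a log2 scale of days, with the term for days 8 to 22 and within either part. The second-order count was 6, and became 3 without normalization, 2 with median centring, and 0 with 75th percentile scaling or the floor. With 1 array left out the trend count ranged from 0 to 4 and the second-order count from 0 to 48. The cause of these shifts was not tested. No paired analysis was possible because each time point had 1 array. The leave-one-out fits of differences from day 0 and the scalings for position were chosen after seeing the data. Most member spots lay below the array mean, and what this does to their precision was not tested.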
